A study of Rattus norvegicus with 110 samples.

Results

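A2m encodes alpha-2-macroglobulin, a large secreted protease inhibitor of the thioester protein family. It is made mainly by hepatocytes, traps proteases of many classes in plasma and is cleared through the endocytic receptor Lrp1. In the rat it is a classical acute-phase protein, induced in liver by interleukin-6 through Stat3. Here it is 1 gene row of 31998 in the count tables, ENSRNOG00000045772.2, a row the study pairs with the symbols A2m and LOC100911545. Its sum with a second row of like length, described further on, was higher at the high dose than in vehicle liver. Below, A2m as a measured value stands for the counts of ENSRNOG00000045772.2 alone. The row was chosen by its values in liver at the high dose of carbon tetrachloride (CCl4), so the levels by dose are a description and carry no test at that dose.

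CCl4 is a hepatotoxin that is activated by cytochrome P450 enzymes, kills hepatocytes around the central vein and, on repeated dosing, leads to fibrosis. The F2 animals were outbred male Sprague Dawley rats, given olive oil vehicle, 8% CCl4 (low dose) or 50% CCl4 (high dose) by repeated oral gavage at 0.5 mL/kg, with tissue taken on day 39. Ancestry set the cohort: cohort A had no treated ancestor, B a treated F1 sire, C a treated F0 grandsire, and D both. The vehicle, low-dose and high-dose groups were 11, 12 and 13 for A, 14, 15 and 16 for B, 17, 18 and 19 for C, and 20, 21 and 22 for D. Each liver group held 7 animals except group 17, which held 6, for 83 liver libraries in all; the 27 kidney libraries came from the vehicle groups. Libraries were of bulk tissue, so fewer cells of a type and less RNA per cell cannot be told apart. Liver libraries held between 31638559 and 51343589 estimated counts, and the ranges of the doses overlapped.

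In vehicle liver every animal had A2m reads. Over the 27 libraries the normalized count (the count scaled to a common library size) was 356 at the lowest, 1075 at the median and 2149 at the highest. Per length, the vehicle level was 6.39 ± 2.68 TPM (SD, n = 27; TPM is the share of a library's transcripts after division by length), above the mean TPM of 62.4% of the genes tested. Its coefficient of variation among vehicle animals was 40.4%, against a median of 17.9% for the 2482 other genes with a vehicle mean within 1.5 times of its own.

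At the high dose the row was listed at 0 in 26 of 28 livers. All 7 libraries of group 13 and all 7 of group 16 were at 0, as were 6 of 7 in group 19 and 6 of 7 in group 22. The exceptions were animal 9 of group 19, with 867 counts, and animal 1 of group 22, with 251 counts. The vehicle groups, in contrast, never fell below 252 counts, so animal 9 of group 19 lay inside the range of its own vehicle group and animal 1 of group 22 lay below that of its own.

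With each zero library set at a limit of 3 counts, the vehicle mean of cohort A was 414-fold higher than the high-dose mean of the row, and that of cohort B 437-fold higher. In cohorts C and D the ratio of the means, at the same limit, was 9.42 and 51.5, with 1 library in each far above 0. By TPM the fall there was smaller, from a vehicle mean of 6.11 to 1.02 in C and from 8.21 to 0.238 in D. The limit covers counting error only. No liver library lay between 0 and 67 counts, so these folds are no bound on expression of the gene. Summed with a second row of like length, described further on, the high-dose mean was 1.98, 2.35, 1.89 and 1.76 times the vehicle mean in A, B, C and D. That turns the direction. The share of all genes called at this dose (adjusted p under 0.1 and a change over 1 on the log2 scale, edgeR) was 21.7%, 26.4%, 21.7% and 22.6% in A, B, C and D respectively, and nothing is read from it for A2m, which was chosen on this contrast.

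**Figure D1:**
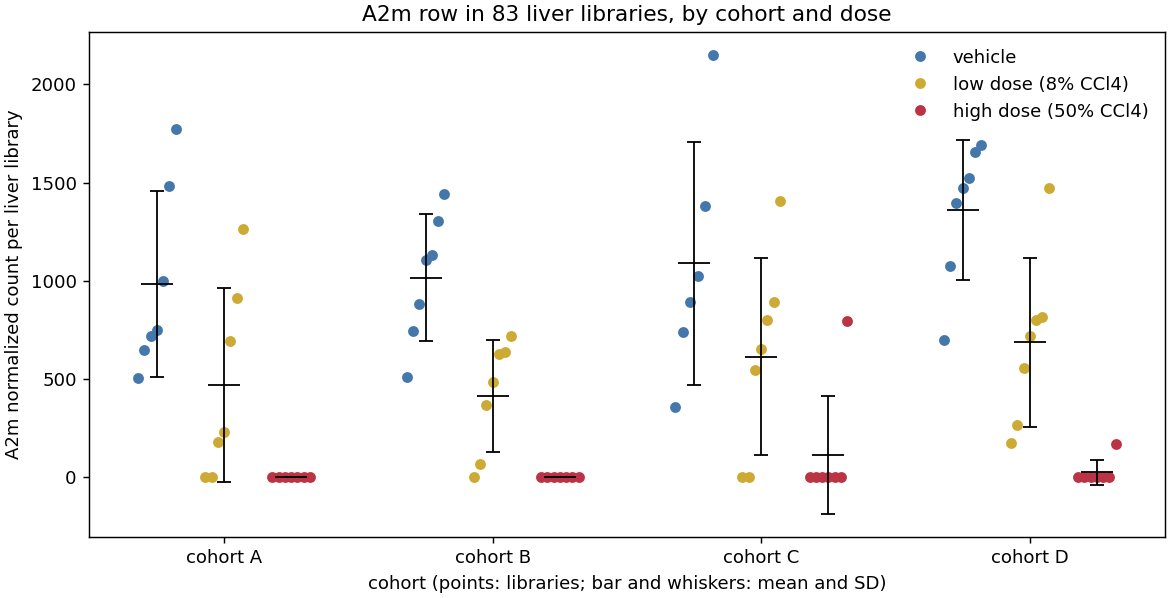
Normalized count of the A2m row in each liver library (vertical axis), by cohort and dose (horizontal axis); points are libraries, and the bar and whiskers are the mean and SD. All high-dose libraries lie at 0 except 1 of group 19 and 1 of group 22, while the low-dose libraries spread from 0 into the vehicle range.

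The low dose gave a wide spread within each group. In group 12 the normalized count was 0 in the lowest library, 231 at the median and 1265 in the highest, and 2 of 7 libraries were at 0. In group 15 it was 0, 483 and 718, with 1 library at 0. In group 18 it was 0, 653 and 1405, with 2 at 0.

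Group 21 of cohort D was the low-dose group with no library at 0, and ran from 175 through a median of 721 to 1475. In all 4 cohorts the low-dose and vehicle ranges overlapped, with 4, 4, 2 and 3 of the 7 low-dose libraries below the lowest vehicle library of cohorts A, B, C and D. No low-dose library lay above the vehicle range of its cohort. Across the 83 livers no library lay between 0 and 67 counts.

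The low-dose mean was 47.7% of the vehicle mean in cohort A, 40.8% in B, 56.3% in C and 50.5% in D. In edgeR's quasi-likelihood test across all genes the change was -1.06 on the log2 scale in cohort A, -1.29 in B, -0.83 in C and -0.99 in D, and none passed (adjusted p = 0.690, 0.661, 0.689 and 0.760). With litter as a block the change was -2.74 in A and -3.70 in C, and these did not pass either (edgeR, adjusted p = 0.398 and 0.483). Summed with a second row of like length, described further on, the low-dose mean was 114%, 115%, 128% and 107% of the vehicle mean in A, B, C and D, which turns the direction. The share of all genes called was 3.7% in cohort A, 3.65% in B, 4.46% in C and 4.25% in D. The vehicle libraries in this comparison are also those of the contrast on which the row was chosen. The low-dose changes of cohorts B, C and D differed from that of cohort A by -0.23, 0.24 and 0.08 on the log2 scale, and no difference passed (edgeR, adjusted p of 1 after rounding for each).

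Animals with the same number within a cohort mostly came from 1 litter. Of 22 litters with a vehicle and a low-dose male, the low-dose level was below the vehicle level in 19 and above it in 3. Of 20 litters with a vehicle and a high-dose male, the high-dose level was the lower in 19.

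The 5 low-dose livers at 0 had vehicle littermates that were not. Animal 1 of group 12 had a littermate at 1776 normalized counts, which was the highest in group 11, and animal 4 of group 12 had one at 751. Animal 5 of group 15 had one at 1105. Animal 10 of group 18 had one at 2149, the highest of all vehicle livers, and animal 1 of group 18 had a pair at 892 and 1023.

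The high-dose littermates of these 5 animals were also at 0. Animal 9 of group 19, at 794 normalized counts, had a vehicle littermate at 741. Animal 1 of group 22, at 169, had a vehicle littermate at 1690, the highest of group 20, a low-dose littermate at 175 and a second high-dose littermate, animal 2 of the same group, at 0. Zero and nonzero livers therefore occurred at the same dose within 1 litter.

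**Figure D2:**
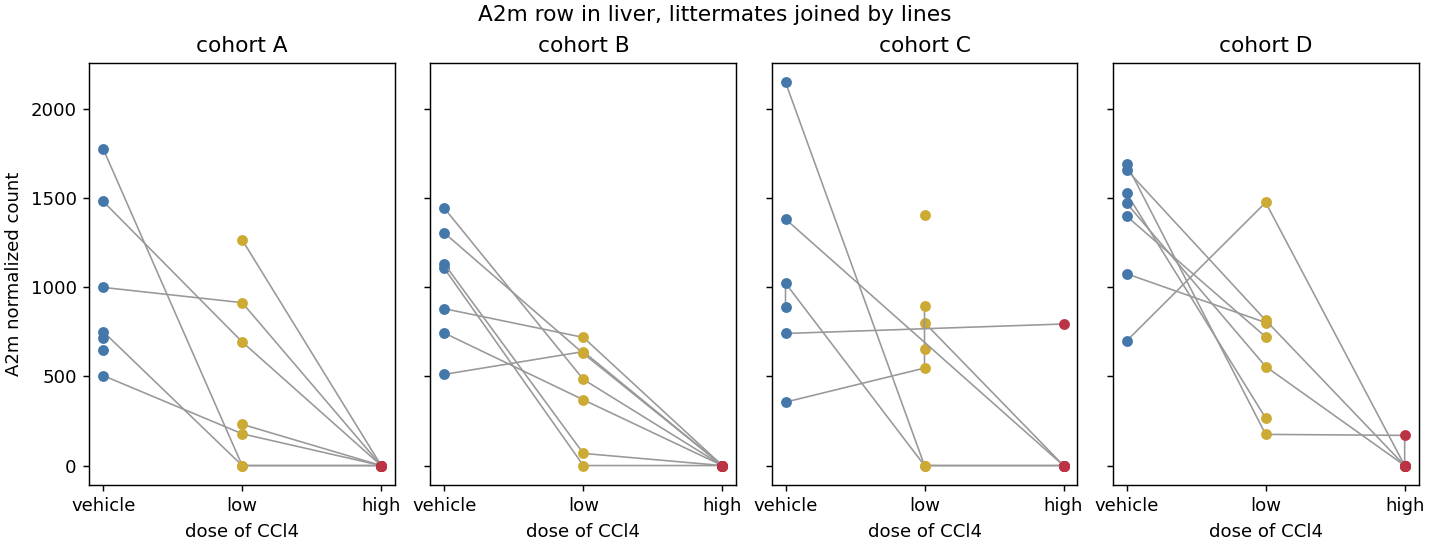
Normalized count of the A2m row in liver (vertical axis) by dose (horizontal axis) in each cohort; points are animals and lines join animals of 1 litter. In 19 of 22 litters the low-dose level lies below the vehicle level.

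The low-dose zeros were spread over 3 of the 4 necropsy dates, with 2 on date 1, 2 on date 2 and 1 on date 4, and the high-dose libraries above 0 were 1 on date 1 and 1 on date 4. Within every date the low-dose mean was below the vehicle mean, for example 452 ± 365 (SD, n = 8) against 1129 ± 450 (SD, n = 8) on date 1.

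Ancestry without any CCl4 was compared in the vehicle livers. The mean normalized count of group 11 was 983 ± 473 (SD, n = 7), and that of group 14 was 1017 ± 325 (SD, n = 7). Group 17 had 1090 ± 618 (SD, n = 6). Group 20, with both ancestors treated, had 1360 ± 355 (SD, n = 7). The medians were 751, 1105, 957 and 1471 in groups 11, 14, 17 and 20, so groups 14 and 17 stood in the other order by median than by mean, and the ranges of all 4 groups overlapped.

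Against group 11 the change was 0.05 in group 14, 0.15 in group 17 and 0.47 in group 20 on the log2 scale, and none passed (edgeR, adjusted p = 1, 0.976 and 0.858). The two-sided exact permutation test on log2 normalized counts gave p = 0.733, 0.859 and 0.103, or 0.859, 0.859 and 0.308 after adjustment over the 3. The share of all genes called in these contrasts was 0.0105%, 0.274% and 5.53%.

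Over all doses the F0 grandsire term was 1.31 ± 0.47 (SE) on the log2 scale (edgeR, adjusted p = 0.0819), and 7.34% of all genes were called for it. This fit includes the high-dose livers on which the row was chosen, and the row has its symbol through a list the study chose for the F0 effect in these samples, so the value is given as a description and no call is read from it. Without the 2 high-dose libraries above 0, both in cohorts with a treated grandsire, the change was 0.43 (edgeR, adjusted p = 0.556), a setting chosen after the data were seen. With DESeq2 it was 2.04 (adjusted p = 0.0297). In vehicle males alone it was 0.31 (edgeR, adjusted p = 0.632). It missed the threshold too with the animal number as a replicate block, at 1.13 (edgeR, adjusted p = 0.196). The F1 sire effect was -0.46 ± 0.45 (SE) and did not pass (edgeR, adjusted p = 0.741), against 0.0474% of all genes. This fit includes the same high-dose livers, and the sign turned in vehicle males alone (0.20) and without the 2 high-dose libraries above 0 (0.0871), as well as with the replicate block (0.0084).

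In kidney the counts of the row were low. Of 27 libraries 6 were at 0 and the other 21 had between 2 and 28 counts, with 11 libraries at 3 counts or fewer. The level was 0.0559 ± 0.0566 TPM (SD, n = 27), and the highest kidney library reached 0.251 TPM, whereas vehicle liver averaged 6.39 TPM. The kidney and liver tables were normalized separately.

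The F0 effect in kidney was 0.94 ± 0.59 (SE) on the log2 scale and the F1 effect 0.03 ± 0.61 (SE), and neither passed (edgeR, adjusted p = 0.659 and 1), with 0.0109% and 0% of all genes called.

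A second liver row of like length ran opposite to A2m. It is ENSRNOG00000028896.4, which no source used here pairs with a symbol, and it was singled out after its values were seen: of 393 rows within 5% of the A2m length and with a mean above 50, it had the most negative correlation with A2m within the low-dose groups (Pearson r = -0.71 over 28 libraries that share dose and normalization). Among all 12253 rows above that mean it ranked 13 from the most negative. Its mean length was 4571 bases against 4425 for A2m.

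In vehicle livers its normalized count ran from 26.2 through a median of 245 to 1108. At the low dose it ran from 292 through 865 to 3118, and at the high dose from 1069 through 2163 to 9175. Within each cohort every high-dose library was above every vehicle library, and the ratio of the means was 6.85 in cohort A, 10.04 in B, 9.12 in C and 10.3 in D.

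In the 5 low-dose livers where A2m was at 0 the second row stood at 1648, 2132, 1917, 3118 and 1074 normalized counts. In the high-dose livers where A2m was above 0 it stood at 2130 in group 19 and 1069 in group 22, the second being the lowest of the high-dose livers. In kidney it was at 0 in 21 of 27 libraries, and these were the 21 in which A2m was above 0. The other 6 kidney libraries, with A2m at 0, held between 5 and 33 counts of the second row. No library of either organ had both rows at 0, so a zero of the A2m row always came with counts on the second row.

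When both rows were summed no liver was at 0, and the high-dose mean was 198%, 235%, 189% and 176% of the vehicle mean in cohorts A, B, C and D. The direction of the A2m row thus held for that row and was the opposite for the sum. Whether the rows share reads or belong to related genes was not tested, and the fall describes the counts of 1 row. Of 13 listed symbols of the alpha-2-macroglobulin and thioester family, which include Mug1, Mug2, Pzp and A2ml1, 2 were paired with an identifier, and both pairs were the A2m row, so the other relatives were not analysed here.

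**Figure D3:**
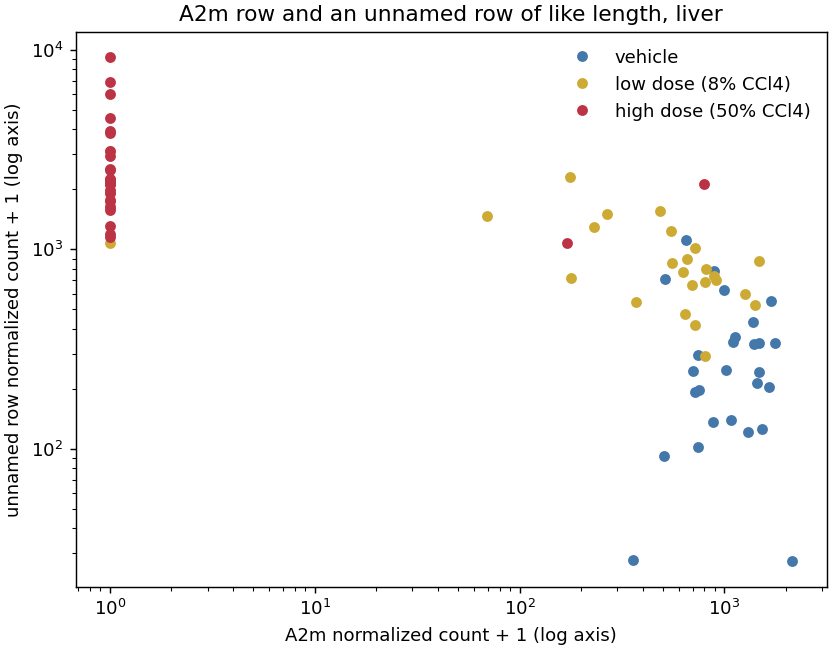
Normalized count plus 1 of the A2m row (horizontal log axis) against that of the unnamed row of like length (vertical log axis) in the 83 liver libraries, coloured by dose. Of the 28 high-dose libraries 26 stack at the left edge, with those of group 19 animal 9 and group 22 animal 1 to the right of it at 794 and 169 on the A2m row, and vehicle libraries lie at the right.

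Exact zeros at the high dose were counted across all genes by a rule shaped on the A2m values. Of the genes tested, 10 were at 0 in at least 20 of 28 high-dose livers and above 0 in at least 20 of 27 vehicle livers, A2m among them. Of the 11849 genes with a vehicle mean above 50, 111 were at 0 in any high-dose liver. Only A2m, on which the rule was shaped, and ENSRNOG00000056962.1, with a vehicle mean of 112, met the rule. The A2m vehicle mean was 1113, and the other 8 genes had vehicle means of 33.0 or less.

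The 5 genes with levels most like those of A2m over the 83 livers had Pearson r between 0.83 and 0.86. They included rows that were nearly lost without being at 0 throughout: ENSRNOG00000008050.4 went from a vehicle mean of 3898 to 5.45 at the high dose, where its highest library was at 30.2 against 960 for the lowest vehicle library, and another row went from 1370 to 81.9. Near-complete loss of counts at the high dose was therefore not particular to the A2m row. These rows were picked for likeness to it over livers that include the high-dose ones. The sum of the A2m row and the second row of like length was not lost. Over the 55 vehicle and low-dose livers r was between 0.61 and 0.70, and Zbtb43, a zinc finger protein, was the member of that set with a symbol (r = 0.64). These libraries share dose, so the likeness is a description.

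Among genes of the A2m pathway and of liver cell types, 8 besides A2m itself had an identifier paired with a symbol, because the pairs come from a list that the study chose on these samples for its F0 effect. They are no independent sample of the pathway. At the high dose 4, 4, 2 and 3 of the 8 were called in cohorts A, B, C and D, with 1 higher in each cohort and the rest lower. Over all genes 21.7%, 26.4%, 21.7% and 22.6% were called, and with 8 genes none of these counts is read as above that share. With litter as a block 4 of the 8 were called in D.

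The gene that rose was Lcn2, lipocalin 2, a positive acute-phase protein that binds siderophores. Its change at the high dose was 5.63 ± 0.84 (SE) on the log2 scale in cohort A, 5.97 ± 0.85 in B, 5.76 ± 0.92 in C and 5.11 ± 0.83 in D (edgeR, adjusted p = 6.5e-08, 1.57e-08, 4.26e-07 and 5.68e-07). Not every liver of cohort A rose: the lowest high-dose library was at 17.8 normalized counts, below the lowest vehicle library at 32.3. The lowest high-dose library was at 983 in B, 509 in C and 282 in D.

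Il6r, a chain of the interleukin-6 receptor, fell in all 4 cohorts, with changes of -1.60, -1.44, -1.35 and -1.14 on the log2 scale in A, B, C and D (edgeR, adjusted p = 3.24e-06, 1.72e-05, 0.000117 and 0.000627). By TPM, which is scaled otherwise, its means fell less, from 50.5 to 26.3 in A and 36.9 to 21.9 in B. In C they fell from 24.8 to 14.1 and in D from 24.7 to 15.7, each under 1 on the log2 scale. Lrp1, the clearance receptor, fell in A, B and D, with changes of -1.34, -1.23 and -1.49, and was at -0.71 in C, where the adjusted p was 0.00782 (edgeR) but the change was under the size needed for a call. By TPM the Lrp1 means fell less, from 78.0 to 48.7 in A and 79.7 to 54.4 in B. In C they fell from 71.8 to 63.7 and in D from 119.6 to 62.7, each under that size. Socs3, a feedback inhibitor of the Stat3 pathway, was not called in any cohort, with changes between -0.87 and 0.16, of which that of -0.87 in C had an adjusted p of 0.0314 (edgeR) but was under that size.

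Of the cell type markers, Kdr, a receptor of endothelial cells, fell in A and B, with changes of -1.47 and -1.23, and was at -0.65 and -0.87 in C and D, where the adjusted p was 0.00894 and 0.000274 (edgeR) but the changes were under that size. By TPM its means fell less, from 16.5 to 9.55 in A and 16.5 to 11.3 in B. In C they fell from 14.6 to 13.8 and in D from 18.8 to 14.1, each under that size. Tat, a hepatocyte enzyme of tyrosine breakdown, was at 0.04, -0.41, -0.05 and -0.07, and was not called. By TPM its means rose in every cohort, from 525.0 to 897.3 in A and 388.6 to 473.0 in B. In C they rose from 359.2 to 504.1 and in D from 359.3 to 465.8. The direction of Tat in B, C and D thus turned with the scaling. The macrophage genes Cd163 and Adgre1 were not called either, with changes between -0.38 and 0.72. Those of Adgre1 in B and D (0.72 and 0.49) had adjusted p = 0.00236 and 0.0465 (edgeR) but were under that size. By TPM the means of both genes rose in every cohort. Those of Adgre1 rose from 9.257 to 14.65, 6.495 to 17.86, 6.343 to 11.84 and 6.239 to 12.02 in A, B, C and D. Those of Cd163 rose from 17.78 to 22.44, 12.87 to 23.26, 10.76 to 19.96 and 13.34 to 18.95. The direction of Cd163 in A and D thus turned with the scaling. The part of cell composition in the A2m values was not tested.

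At the low dose none of the 8 was called in any cohort by edgeR, against 3.7%, 3.65%, 4.46% and 4.25% of all genes, so that with 8 genes a count of 0 is near the share over all genes. With litter as a block edgeR called 1 of the 8 in B and 1 in D, and DESeq2 called 1 in D. Lcn2 was at 1.60, 1.76, 1.42 and 2.00 on the log2 scale in A, B, C and D (edgeR, adjusted p = 0.268, 0.198, 0.295 and 0.135).

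**Figure D4:**
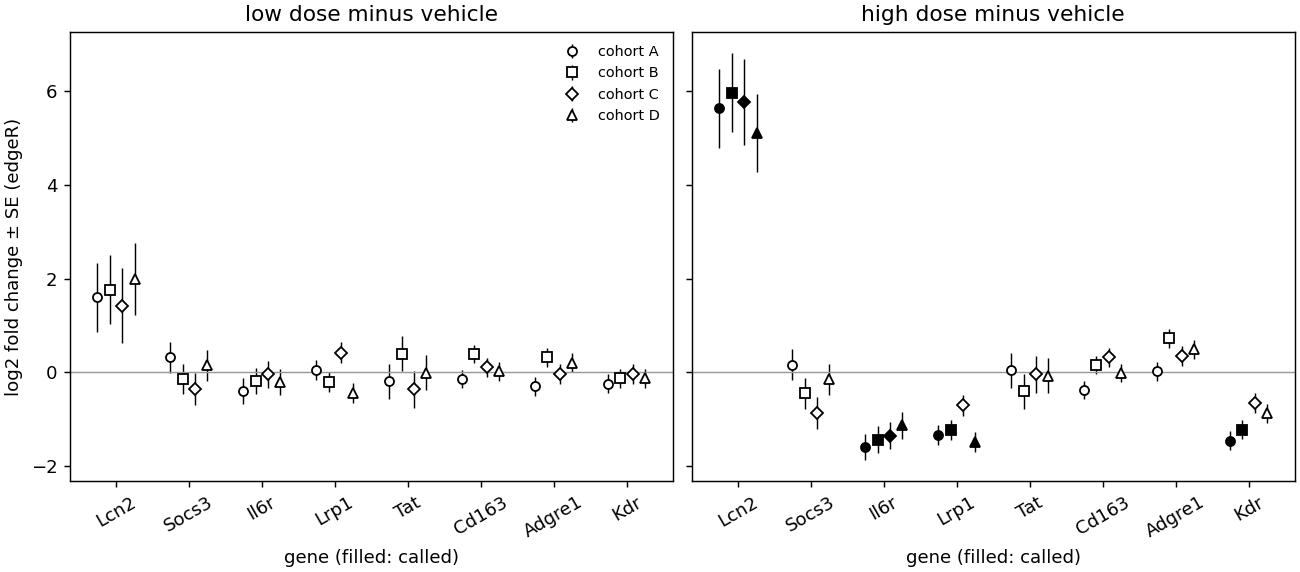
Log2 fold change with its SE from edgeR (vertical axis) of 8 listed genes (horizontal axis) at the low dose, left, and the high dose, right, in cohorts A to D; filled symbols were called. Lcn2 is called higher and Il6r called lower at the high dose in all 4 cohorts.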

How the data were processed

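Stranded poly(A) RNA-seq of liver and kidney was quantified by the authors with Salmon 0.14.0 and summarized per gene; the deposited tables hold estimated counts and, in a unit of their own (other), the average transcript length per gene and library. Salmon divides reads that fit several transcripts, so a row can gain or lose reads to a near copy. Estimated counts were rounded and tested with edgeR 4.0.16 (quasi-likelihood, TMM, R 4.3.3, Benjamini-Hochberg over all genes tested) in genes with a summed count above 10 in at least 1 group, fitting 12 group means, or F0, F1 and dose. Dose calls needed an absolute log2 change over 1 beside an adjusted p under 0.1; F0 and F1 calls in liver needed that adjusted p and a mean above 50, and vehicle-group and kidney calls the adjusted p alone. TPM was computed from counts and lengths. Scripts were tested on simulated data.

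The gene and the lists were chosen with earlier results of these data known. Named genes were those of the lists with a paired identifier, the 5 most correlated with A2m over 83 and over 55 livers (log2 CPM, prior count 2, mean above 50), and genes at 0 in at least 20 high-dose and above 0 in at least 20 vehicle livers; the row of like length was added after its values were seen. All sample columns were mapped by title. No 2 libraries were identical. Litters came from the study's pedigree and the 4 necropsy dates from its staggering scheme. Same-numbered animals of a cohort shared a litter in 59 of 77 pairs, and their deviations from the group means correlated at 0.10 on average (lowest -0.25). DESeq2 1.42.0, other size factors, length offsets, no filter, blocks and left-out dates were alternatives.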

Additional observations from a re-analysis of the deposited data

Results flagged for a closer look

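Within-group spread singled out 7 of 38 group values in which the highest library stood apart from the others of its group by Dixon's criterion, which chance meets in about 1 of 20 groups. For A2m these were animal 9 of group 19, at 794 normalized counts, and animal 1 of group 22, at 169, each with every other library of its group at 0. For the unnamed row of like length they were animal 2 of group 14, at 711 with the next at 361, animal 1 of group 18, at 3118 with the next at 1232, and animal 7 of group 22, at 9175 with the next at 2538. For the sum of both rows they were animal 1 of group 18, at 3118, and animal 7 of group 22, at 9175. Animal 1 of group 18 is a low-dose liver in which A2m was at 0.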

How the results depend on the processing

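Of 189 alternative values, 154 kept the direction and the side of the threshold or stayed within the stated spread. The F0 effect in liver, from which no call is read because its fit includes the high-dose livers that chose the row, was highest by DESeq2 (2.04, adjusted p = 0.0297). Its adjusted p was above 0.1 with the replicate block (1.13), in vehicle and low-dose males (0.43), in vehicle males (0.31) and without the 2 high-dose livers above 0 (0.43), and with any necropsy date left out (1.02 to 1.44, edgeR, adjusted p = 0.130 to 0.311). The F1 effect in liver changed sign with the replicate block (0.0084), in vehicle and low-dose males (0.0868), in vehicle males (0.20), without those 2 livers (0.0871) and, over the left-out dates, ran from -0.81 to 0.77. The F1 effect in kidney was -0.18 with the replicate block. The replicate block left the low-dose, vehicle-group and kidney results for A2m on the same side of the threshold. A two-sided exact permutation test at the low dose, added after the data were seen, gave adjusted p = 0.0956 in A (-1.07), 0.0163 in B (-1.29), 0.160 in C and 0.0233 in D (-0.98); it is adjusted over 4 values only, ignores shared litters and uses the vehicle libraries of the contrast that chose the row, so no call is read from it. The low-dose change ran from -2.74 to -0.81 in A, -1.70 to -0.92 in B, -3.70 to -0.60 in C and -1.63 to -0.74 in D, with the litter block giving the lowest in A and C. Listed genes called at the low dose were 1 in B and 1 in D with a litter block and 1 in D by DESeq2, against 0, and at the high dose 4 in D with the litter block, against 3. Summed with the unnamed row, the low-dose mean was 114%, 115%, 128% and 107% and the high-dose mean 198%, 235%, 189% and 176% of vehicle in A, B, C and D, with 0 libraries at 0. The causes were not tested. The planned sum with copies named by the reference was not run, because the reference used here pairs no such identifier. Kidney A2m counts were 28 or fewer in each library.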
